A study of Mus musculus with 8 samples.

Results

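The pB3 line was compared with 3 other mouse mammary carcinoma lines, and the genes that separated it most sharply were read out by an on and off rule. A gene counted as on only in pB3 when both pB3 libraries held at least 10 CPM (read counts scaled to a common library size, after TMM normalization) and all 6 libraries of the other lines held under 1 CPM. A gene counted as off only in pB3 when both pB3 libraries held under 1 CPM and all 6 others at least 10 CPM. Of 53379 genes, 16 were on only in pB3 (0.03%) and 2 were off only in pB3 (0.00375%), and these 18 genes lay on 11 chromosomes. Because CPM chose them, their CPM values are given as a description with no test.

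All 4 lines came from tumours of C57BL/6 mice and were sequenced as 2 libraries each. The pB3 and pB2 lines derive from MMTV-PyMT tumours, in which the mouse mammary tumour virus promoter drives the polyoma middle T oncoprotein in mammary epithelium. The Epcam hi and 687g lines derive from MMTV-PyMT mice that also carry a Snail-IRES-YFP allele, a yellow fluorescent reporter of Snail (Snai1). All were grown untreated as adherent monolayers in DMEM/F12 with 5% adult bovine serum. Each line is a single line, so a difference between pB3 and the others cannot be told apart from a difference between individual tumours or isolates. The labels do not say whether the 2 libraries of a line came from separate cultures, so p-values measure the spread between these libraries only.

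The lines were assembled as models of epithelial-mesenchymal transition (EMT), in which epithelial cells give up E-cadherin junctions and take on motility, matrix production and vimentin filaments. Transcription factors of the Snail, Zeb and Twist families drive it, and cells can rest in states that keep both sets of genes. In mammary tumours, that programme is known for invasion and matrix remodelling. The Cdkn2a locus, in contrast, is best known as a brake on the cell cycle that many tumours lose.

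The library totals were 15631003 and 15916987 counts in pB3, against 12442730 and 16895237 in pB2. Those of Epcam hi were 13701156 and 18515857, and those of 687g 19149916 and 16094250. In one library 3 reads amount to between 0.159 and 0.222 CPM, so values near that level rest on very few reads. Log CPM of the 2 libraries of a line correlated with r of 0.993 in pB3, against 0.992 in pB2, 0.976 in Epcam hi and 0.986 in 687g, over genes, which are not independent replicates. The Epcam hi libraries stood farthest apart: 13.4% of tested genes differed by over 2-fold between them, against 3.22% between the pB3 libraries. Without the first Epcam hi library the rule gave 18 on-only genes, and without the second 16, with 2 off-only genes either way.

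The cell type label was checked against epithelial and mesenchymal markers. Vim, the mesenchymal filament vimentin, held 2307 and 2429.8 CPM in pB3, against 13.8 and 14.1 CPM in pB2, 21.3 and 32.4 CPM in Epcam hi and 3385 and 2332 CPM in 687g. Cdh1, which encodes E-cadherin, held 51.8 and 50.9 CPM in pB3, against 143 and 167 CPM in pB2, 456 and 519 CPM in Epcam hi and 1.90 and 0.738 CPM in 687g. Epcam, an epithelial surface protein, held 278 and 264 CPM in pB3, against 578 and 552 CPM in pB2, 1407 and 1535 CPM in Epcam hi and 3.85 and 3.69 CPM in 687g. The pB3 libraries thus held vimentin near the level of 687g and both epithelial genes at levels between those of 687g and the other lines. The luminal keratin gene Krt8 held 473 and 486 CPM in pB3, against 104 and 94.1 CPM in pB2, 407 and 535 CPM in Epcam hi and 249.96 and 201 CPM in 687g. Zeb1, a repressor of epithelial genes, held 27.1 and 27.95 CPM in pB3, against 0.148 and 0.0530 CPM in pB2, 0.351 and 1.04 CPM in Epcam hi and 49.5 and 41.4 CPM in 687g. Trp63, a regulator of basal epithelium, was listed at 0 in both pB3 libraries and above 30 CPM in pB2 alone, where it held 35.3 and 33.9 CPM.

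The 2 genes off only in pB3 were Tlx1 and Cdkn2a. Tlx1 (chr19:45150680-45156943, GRCm38, plus strand) encodes a homeobox transcription factor needed for formation of the spleen and known as an oncogene of human T-cell leukaemia. It held 0.201 and 0.194 CPM in pB3, against 74.9 and 72.1 CPM in pB2, 29.7 and 25.9 CPM in Epcam hi and 68.8 and 62.6 CPM in 687g. Those pB3 values are 3 reads in each library, 6 in all. Cdkn2a (chr4:89274471-89294653, GRCm38, minus strand) encodes p16Ink4a, an inhibitor of Cdk4 and Cdk6, and from an upstream first exon in another reading frame p19Arf, an inhibitor of Mdm2 that stabilises p53. It held 0.269 and 0.129 CPM in pB3, against 40.98 and 32.4 CPM in pB2, 12.4 and 10.3 CPM in Epcam hi and 40.3 and 30.1 CPM in 687g, and its pB3 values also rest on 6 reads. That the 3 other lines lay above pB3 with no overlap was fixed by the rule. Among those 3 lines, Epcam hi was the lowest for both genes. Counting was per gene, so transcripts for p16Ink4a and p19Arf cannot be told apart.

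Promoter windows of these 2 genes and of 4 on-only genes are printed to show how widely the members differ in CpG content at their starts. The windows are from RefSeq (GRCm38.p6), run from upstream to just past the annotated start on the strand of the gene, and have every CG in capitals. RefSeq windows were found for 11 of the 18 members, as 12 windows since Cdkn2a has 2. The first Cdkn2a window (chr4:89294570-89294869, minus strand) lies at the upstream start, used for p19Arf, and the second (chr4:89282143-89282442, minus strand) at the start used for p16Ink4a. The others are Tlx1 (chr19:45150465-45150764, plus strand), Ror2 (chr13:53286075-53286374, minus strand), Crabp1 (chr9:54764498-54764797, plus strand), Col4a6 (chrX:141474027-141474326, minus strand) and Prl3d2 (chr13:27121445-27121744, plus strand).
Cdkn2a, upstream start: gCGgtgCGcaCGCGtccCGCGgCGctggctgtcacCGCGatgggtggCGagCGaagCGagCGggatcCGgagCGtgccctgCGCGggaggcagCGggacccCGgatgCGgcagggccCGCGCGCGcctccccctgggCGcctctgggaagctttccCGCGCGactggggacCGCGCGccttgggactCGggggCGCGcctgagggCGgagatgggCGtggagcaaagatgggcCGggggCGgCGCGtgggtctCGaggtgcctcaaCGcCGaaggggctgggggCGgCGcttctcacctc
Cdkn2a, downstream start: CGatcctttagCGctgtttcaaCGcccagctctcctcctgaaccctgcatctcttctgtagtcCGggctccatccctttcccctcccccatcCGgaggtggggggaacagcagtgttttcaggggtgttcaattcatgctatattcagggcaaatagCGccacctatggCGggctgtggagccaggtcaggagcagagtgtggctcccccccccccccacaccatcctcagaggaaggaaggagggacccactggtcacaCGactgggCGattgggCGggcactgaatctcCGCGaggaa
Tlx1: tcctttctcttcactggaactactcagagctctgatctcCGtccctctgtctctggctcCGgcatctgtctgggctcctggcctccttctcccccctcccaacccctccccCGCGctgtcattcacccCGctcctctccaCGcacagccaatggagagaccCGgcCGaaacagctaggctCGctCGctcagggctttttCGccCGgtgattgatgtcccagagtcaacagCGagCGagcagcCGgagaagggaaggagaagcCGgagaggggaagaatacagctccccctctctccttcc
Ror2: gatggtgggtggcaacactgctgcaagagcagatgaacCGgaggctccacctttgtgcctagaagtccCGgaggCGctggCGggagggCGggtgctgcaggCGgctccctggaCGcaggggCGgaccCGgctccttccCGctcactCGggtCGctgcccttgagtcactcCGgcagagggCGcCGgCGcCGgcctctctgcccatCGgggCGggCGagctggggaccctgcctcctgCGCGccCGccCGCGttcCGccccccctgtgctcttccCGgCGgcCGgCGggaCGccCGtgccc
Crabp1: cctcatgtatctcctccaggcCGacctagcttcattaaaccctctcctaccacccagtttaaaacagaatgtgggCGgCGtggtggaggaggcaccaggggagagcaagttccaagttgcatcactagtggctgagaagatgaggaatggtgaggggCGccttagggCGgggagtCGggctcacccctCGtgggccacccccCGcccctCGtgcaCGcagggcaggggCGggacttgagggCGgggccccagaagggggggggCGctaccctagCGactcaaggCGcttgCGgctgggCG
Col4a6: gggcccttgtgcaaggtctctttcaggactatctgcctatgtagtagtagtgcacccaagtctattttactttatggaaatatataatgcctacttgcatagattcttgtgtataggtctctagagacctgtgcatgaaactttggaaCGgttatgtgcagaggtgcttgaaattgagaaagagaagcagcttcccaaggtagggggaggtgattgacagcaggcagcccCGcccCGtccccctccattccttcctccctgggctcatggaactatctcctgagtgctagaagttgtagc
Prl3d2: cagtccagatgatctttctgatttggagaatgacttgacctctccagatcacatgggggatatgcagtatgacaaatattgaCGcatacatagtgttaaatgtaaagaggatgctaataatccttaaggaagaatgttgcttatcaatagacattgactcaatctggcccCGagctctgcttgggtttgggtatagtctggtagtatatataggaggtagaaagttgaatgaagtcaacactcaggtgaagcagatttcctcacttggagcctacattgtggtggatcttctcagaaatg

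The upstream Cdkn2a window holds 45 CG dinucleotides, a count reached by 1.93% of all 32851 promoter windows, whose median is 7. The Tlx1 window holds 16, a count reached by 33.0% of windows, and the downstream Cdkn2a window 12. Among the on-only genes, Ror2 has 32 and Crabp1 17, while Col4a6 has 3 and Prl3d2 2, so the members do not share one promoter class. The exact letters TATAAA of the TATA box, searched on both strands, are in none of the 12 windows and in 13.6% of all windows. Other forms of the TATA box, such as the tatatata in the Prl3d2 window, were not counted. These counts describe the reference sequence; DNA methylation was not measured here.

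**Figure D1:**
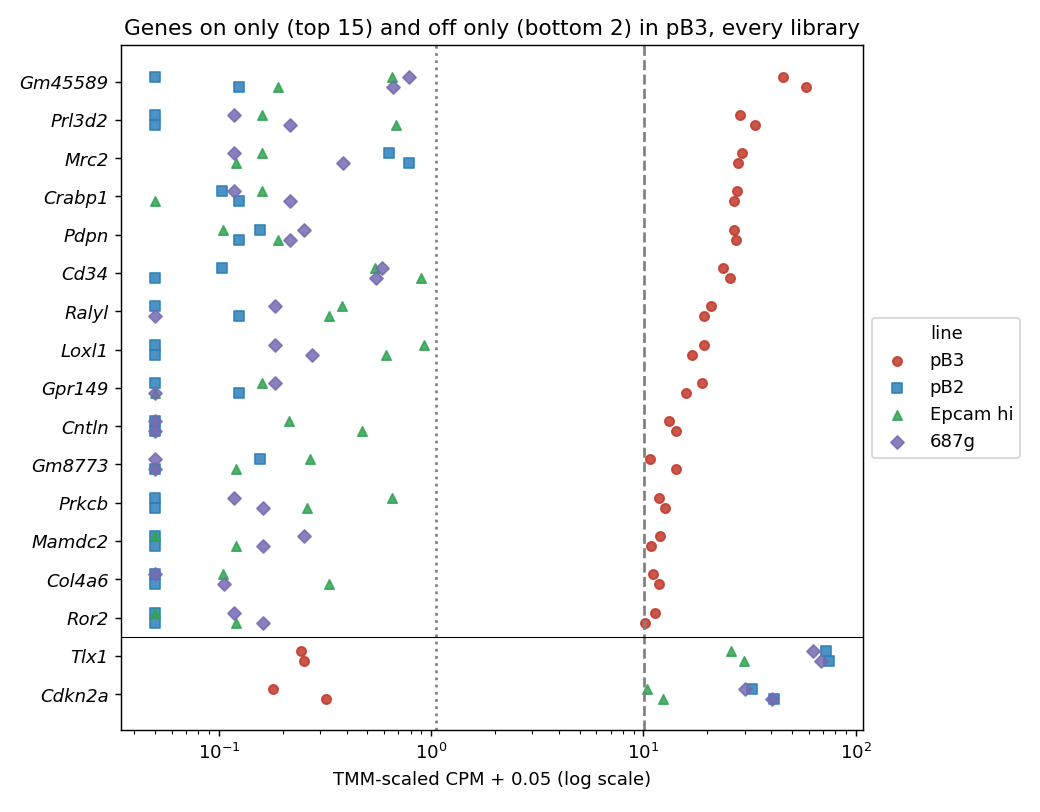
CPM + 0.05 of 15 of the 16 genes on only in pB3 and the 2 off only in pB3, on a log axis, with 1 point per library, coloured and shaped by line. Vertical lines mark 1 and 10 CPM. Every on-only gene shown has both pB3 points at 10 CPM or more and the other 6 under 1 CPM, and Tlx1 and Cdkn2a have the reverse order.

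Around Cdkn2a, values in pB3 were below all other libraries at its neighbour Cdkn2b and at the small genes Gm12609 and Gm12610, and mixed on the Mtap side. Cdkn2b, the adjacent gene for the Cdk4 and Cdk6 inhibitor p15Ink4b, held 0.604 and 1.04 CPM in pB3, against 3.85 and 4.13 CPM in pB2, 39.4 and 19.8 CPM in Epcam hi and 65.8 and 51.9 CPM in 687g. Its difference from the mean of the other lines was -4.52 ± 0.37 log2 (adjusted p = 5.79e-07) (log2 scale, edgeR quasi-likelihood F test, Benjamini-Hochberg adjustment over 15890 genes, standard error after the sign ±, here and below), and both pB3 libraries were below all 6 others. Mtap, the methylthioadenosine phosphorylase gene on the other side of Cdkn2a, is often lost together with it in human tumours. Here it held 189 and 193 CPM in pB3, against 148 and 138 CPM in pB2, 322 and 342 CPM in Epcam hi and 711 and 656 CPM in 687g, a difference of -0.74 ± 0.14 log2 (adjusted p = 0.00124) that left pB3 above pB2 and below Epcam hi and 687g. Between Mtap and Cdkn2a, the noncoding gene Gm12606 held 0.806 and 0.647 CPM in pB3, against 0 CPM in both pB2 libraries, 0.351 and 0.219 CPM in Epcam hi and 0.725 and 0.537 CPM in 687g and was called higher.

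Farther out on the same side, Klhl9, a substrate adaptor of a ubiquitin ligase, held 206 and 234 CPM in pB3, against 373 and 323 CPM in pB2, 363 and 279 CPM in Epcam hi and 232 and 271 CPM in 687g, a difference of -0.47 ± 0.16 log2 (adjusted p = 0.0458) with overlap. Gm12602 held 1.41 and 0.647 CPM in pB3, against 0 CPM in both pB2 libraries, 43.2 and 45.8 CPM in Epcam hi and 53.8 and 63.96 CPM in 687g, so that pB3 and pB2 were both low there. The noncoding gene Wincr1 held 363 and 288 CPM in pB3, against 1.18 and 0.371 CPM in pB2, 249 and 369 CPM in Epcam hi and 433 and 644 CPM in 687g. Beside Cdkn2b, Gm12609 held 0 CPM in both pB3 libraries, against 0.222 and 0.159 CPM in pB2, 0.632 and 0.765 CPM in Epcam hi and 0.390 and 0.671 CPM in 687g. Farther along, Gm12610 held 0 CPM in both pB3 libraries, against 0.444 and 0.477 CPM in pB2, 0.561 and 0.601 CPM in Epcam hi and 0.502 and 1.14 CPM in 687g. Tusc1, a small gene on the far side, held 14.2 and 13.1 CPM in pB3, against 5.70 and 5.30 CPM in pB2, 4.56 and 5.79 CPM in Epcam hi and 2.73 and 2.55 CPM in 687g, which was higher in pB3 at 1.69 ± 0.19 log2 (adjusted p = 1.40e-05). No copy number was measured here, and loss of DNA and silencing of the locus cannot be told apart from RNA counts.

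**Figure D2:**
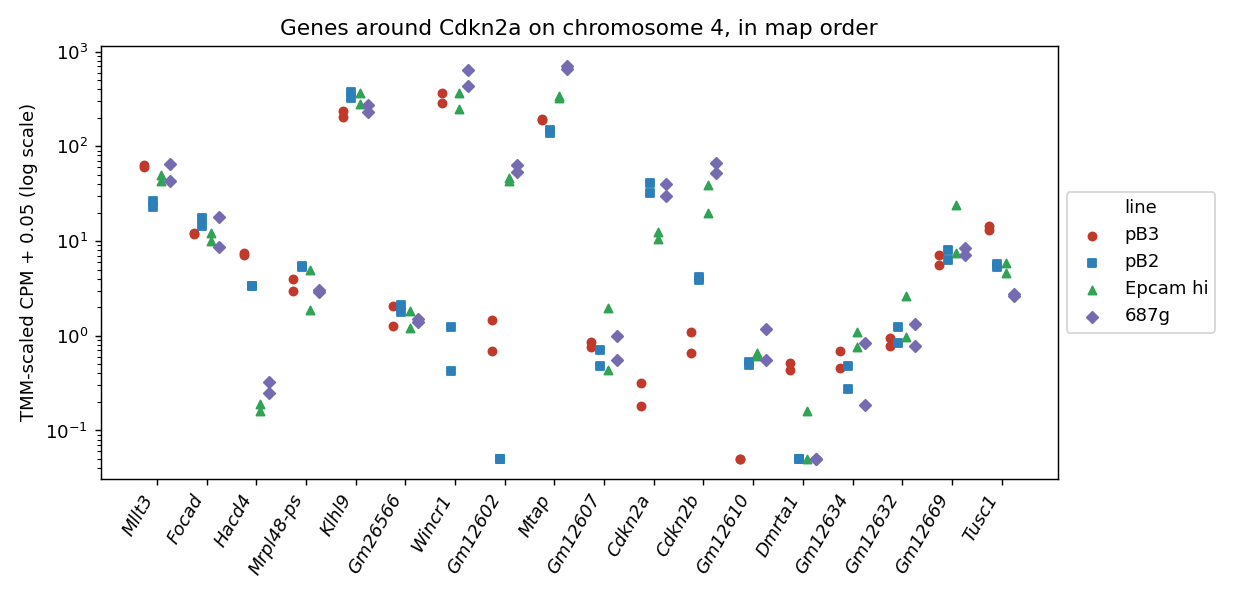
CPM + 0.05 by library, on a log axis, of genes around Cdkn2a on chromosome 4 in their order along the chromosome. Both pB3 libraries are low at Cdkn2a, Cdkn2b and Gm12610, while at Mtap they hold 189 and 193 CPM and at Klhl9 206 and 234 CPM.

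Other parts of the pathway that p16Ink4a acts on were looked at as a complete family by symbol, chosen after the members were known. The related inhibitor gene Cdkn2c, highest in pB2, differed by -0.59 ± 0.15 log2 (adjusted p = 0.00884), with overlap. Mdm2, the p53 inhibitor that p19Arf binds, was highest in Epcam hi and differed by -0.49 ± 0.16 log2 (adjusted p = 0.0354), also with overlap. Cdkn2d, Cdk4 and Cdk6 were not called and overlapped. Rb1, for the retinoblastoma protein that these kinases phosphorylate, differed by -0.42 ± 0.21 log2 (adjusted p = 0.182) and was not called. Ccnd1, which encodes cyclin D1, held 1065 and 1058 CPM in pB3, against 477 and 515 CPM in pB2, 1023 and 913 CPM in Epcam hi and 860.2 and 527 CPM in 687g. It differed from the mean of the other lines by 0.61 ± 0.17 log2 (adjusted p = 0.0165). Both pB3 libraries were above all others, though close to Epcam hi. Ccnd2, for cyclin D2, held 103 and 101 CPM in pB3, against 0.222 and 0.106 CPM in pB2, 16.4 and 12.2 CPM in Epcam hi and 48.2 and 34.8 CPM in 687g, a difference of 4.48 ± 0.19 log2 (adjusted p = 9.77e-10). Trp53, the p53 gene, differed by 0.44 ± 0.16 log2 (adjusted p = 0.0608) and was not called.

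Tlx1 lies on chromosome 19 beside Kazald1 and its antisense gene Tlx1os. Kazald1, a secreted Kazal-domain protein, held 1.41 and 0.906 CPM in pB3, against 171 and 166 CPM in pB2, 3.23 and 2.24 CPM in Epcam hi and 4.13 and 5.91 CPM in 687g. Tlx1os held 0 CPM in both pB3 libraries, against 1.48 and 0.636 CPM in pB2, 0.491 and 0.765 CPM in Epcam hi and 0.892 and 0.940 CPM in 687g. Whether the counting used strand is not given in the labels, so reads of Tlx1 and Tlx1os may not be fully kept apart. The antisense gene was low in all lines and was listed at 0 in pB3 alone.

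The extracellular matrix is where the products of 4 on-only genes act. Mrc2 (chr11:105292643-105351139) encodes Endo180, a receptor that takes up collagen for breakdown, and held 27.8 and 29.1 CPM in pB3, against 0.740 and 0.583 CPM in pB2, 0.0702 and 0.109 CPM in Epcam hi and 0.335 and 0.0671 CPM in 687g. Loxl1 (chr9:58287738-58313186) encodes a lysyl oxidase-like enzyme that crosslinks elastin, and held 16.9 and 19.2 CPM in pB3, against 0 CPM in both pB2 libraries, 0.561 and 0.875 CPM in Epcam hi and 0.223 and 0.134 CPM in 687g. Col4a6 (chrX:141165403-141474076) encodes a type IV collagen chain of basement membranes, and held 11.8 and 11.001 CPM in pB3, against 0 CPM in both pB2 libraries, 0.281 and 0.0547 CPM in Epcam hi and 0.0558 and 0 CPM in 687g. Mamdc2 (chr19:23302609-23448442) encodes a secreted proteoglycan with MAM domains, and held 10.8 and 11.97 CPM in pB3, against 0 CPM in both pB2 libraries, 0.0702 and 0 CPM in Epcam hi and 0.112 and 0.201 CPM in 687g. The pB2 libraries were at 0 for 3 of these genes and were the highest of the other lines for Mrc2. A fibroblast marker list, beside them, summed to 189 and 207 CPM in pB3, against 75.4 and 94.6 CPM in pB2, 468 and 349 CPM in Epcam hi and 1146 and 953 CPM in 687g, with 3 of its 6 tested genes called higher and 2 lower, and its part in these results was not tested. In bulk libraries, fewer cells of a kind and less RNA per cell cannot be told apart.

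Relatives of these genes were read as families chosen after the members were known. Among the lysyl oxidases, Loxl3 held 154 and 168 CPM in pB3, against 0.740 and 0.848 CPM in pB2, 2.67 and 1.75 CPM in Epcam hi and 25.3 and 15.5 CPM in 687g, higher in pB3 by 5.60 ± 0.19 log2 (adjusted p = 1.90e-10). Loxl2 held 3.63 and 2.65 CPM in pB3, against 0.740 and 0.583 CPM in pB2, 0 and 0.0547 CPM in Epcam hi and 0 and 0.0671 CPM in 687g, with both pB3 libraries above the rest. Loxl4 went the other way, with 6.51 and 6.02 CPM in pB3, against 21.3 and 21.9 CPM in pB2, 50.5 and 35.6 CPM in Epcam hi and 46.1 and 32.1 CPM in 687g, a difference of -2.40 ± 0.22 log2 (adjusted p = 2.14e-06). Lox itself stayed under 1 CPM in all 8 libraries.

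Among the type IV collagens, Col4a1 held 299 and 289 CPM in pB3, against 0.888 and 0.424 CPM in pB2, 279.6 and 313 CPM in Epcam hi and 284 and 158 CPM in 687g and was called higher at 3.08 ± 0.21 log2 (adjusted p = 8.20e-08), with pB3, Epcam hi and 687g at like levels and pB2 nearly without it. Col4a2, whose chain joins that of Col4a1 in the common basement membrane trimer, held 201 and 194 CPM in pB3, against 0.518 and 0.530 CPM in pB2, 164 and 172 CPM in Epcam hi and 169 and 99.2 CPM in 687g, a difference of 3.11 ± 0.19 log2 (adjusted p = 2.82e-08). Col4a3 held 7.05 and 5.11 CPM in pB3, against 0.148 and 0 CPM in pB2, 2.11 and 1.69 CPM in Epcam hi and 0.613 and 0.805 CPM in 687g, a difference of 3.73 ± 0.40 log2 (adjusted p = 8.85e-06). Col4a4 held 4.63 and 3.95 CPM in pB3, against 0 CPM in both pB2 libraries, 3.37 and 2.24 CPM in Epcam hi and 0.446 and 0.537 CPM in 687g and was called higher too. For Col4a2, Col4a3 and Col4a4 both pB3 libraries were above all 6 others, though close to Epcam hi for Col4a2 and Col4a4. Col4a5 starts next to Col4a6 on the opposite strand, and its protein pairs with that of Col4a6. It held 41.4 and 47.04 CPM in pB3, against 75.7 and 69.9 CPM in pB2, 25.7 and 9.40 CPM in Epcam hi and 117 and 87.1 CPM in 687g, which overlapped and differed by -0.19 ± 0.27 log2 (adjusted p = 0.685). The on-only pattern at this gene pair was therefore on the Col4a6 side. Elastic fibre genes, whose products are crosslinked by or assembled with lysyl oxidases, were mixed. Fbn1, fibrillin 1, held 7.39 and 10.2 CPM in pB3, against 0.444 and 0.106 CPM in pB2, 0.0702 and 0 CPM in Epcam hi and 0.0558 and 0 CPM in 687g, a difference of 6.91 ± 0.50 log2 (adjusted p = 1.61e-07). Fbln1, fibulin 1, held 17.4 and 16.8 CPM in pB3, against 1.70 and 1.43 CPM in pB2, 0.0702 and 0.0547 CPM in Epcam hi and 0.390 and 0.201 CPM in 687g, a difference of 5.73 ± 0.27 log2 (adjusted p = 2.81e-09), and both genes were above all other libraries. Eln, elastin itself, held 1.07 and 1.29 CPM in pB3, against 9.47 and 10.6 CPM in pB2, 0 and 0.109 CPM in Epcam hi and 0.0558 and 0 CPM in 687g, highest in pB2. Fbln2 held 337 and 349 CPM in pB3, against 2.88 and 3.23 CPM in pB2, 819 and 781 CPM in Epcam hi and 1245 and 739 CPM in 687g, so that Epcam hi and 687g were above pB3. Fbln5 was called lower, with 0.0672 and 0.0647 CPM in pB3, against 7.18 and 9.96 CPM in pB2, 0.211 and 0.0547 CPM in Epcam hi and 0.112 and 0.537 CPM in 687g, most of it in pB2.

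A pair of on-only genes encode heavily glycosylated surface proteins. Pdpn (chr4:143267431-143299564), podoplanin, is known from lymphatic endothelium and from the invading edge of carcinomas, and held 27.3 and 26.6 CPM in pB3, against 0.0740 and 0.106 CPM in pB2, 0.140 and 0.0547 CPM in Epcam hi and 0.167 and 0.201 CPM in 687g. The lowest pB3 library was 119.8 times the highest other library, with values under 3 counts raised to 3 counts. Cd34 (chr1:194938819-194961279), a sialomucin of blood progenitors and vessels, held 25.6 and 23.7 CPM in pB3, against 0 and 0.0530 CPM in pB2, 0.842 and 0.492 CPM in Epcam hi and 0.502 and 0.537 CPM in 687g. Its relative Podxl, podocalyxin, held 48.4 and 48.6 CPM in pB3, against 31.1 and 43.1 CPM in pB2, 0.491 and 1.59 CPM in Epcam hi and 41.4 and 27.6 CPM in 687g, so that pB3 was above but close to pB2 and 687g. Markers of the cells in which these genes are best known were summed as well. Endothelial markers reached 10.9 and 12.04 CPM in pB3, against 13.1 and 13.8 in pB2. Sums were 10.8 and 9.46 in Epcam hi, with 4.18 and 2.55 in 687g. Cldn5 and Tie1 were at 0 in all libraries. Of the 10 endothelial markers, 2 were tested, and 1 of them was called higher in pB3, with overlap. Just 1 of the 10 held at least 1 CPM in both pB3 libraries. Summed leukocyte markers were 1.48 and 1.88 CPM in pB3, against 0.962 and 1.48 in pB2, 36.4 and 14.5 for Epcam hi, with 3.74 and 2.82 in 687g.

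A further 3 on-only genes described here carry signals at or across the membrane. Ror2 (chr13:53109312-53286124) encodes a receptor tyrosine kinase-like receptor for Wnt5a, and held 10.1 and 11.3 CPM in pB3, against 0 CPM in both pB2 libraries, 0.0702 and 0 CPM in Epcam hi and 0.112 and 0.0671 CPM in 687g. Its ligand gene Wnt5a held 44.1 and 47.8 CPM in pB3, against 0.148 and 0 CPM in pB2, 0.632 and 1.04 CPM in Epcam hi and 43.6 and 31.9 CPM in 687g, so that pB3 and 687g both had the ligand. Wnt5b, a relative of Wnt5a, held 63.2 and 50.3 CPM in pB2 and under 1 CPM in all other libraries. That Ror2 passed 10 CPM in pB3 alone was fixed by the rule. The sister receptor Ror1 held 1.54 and 1.23 CPM in pB3, against 4.44 and 7.26 CPM in pB2, 9.47 and 13.99 CPM in Epcam hi and 0.837 and 1.14 CPM in 687g, a difference of -1.56 ± 0.34 log2 (adjusted p = 0.00357) with overlap. Prkcb (chr7:122288751-122634402), the beta isoform of protein kinase C, which answers to calcium and diacylglycerol, held 12.6 and 11.8 CPM in pB3, against 0 CPM in both pB2 libraries, 0.211 and 0.601 CPM in Epcam hi and 0.112 and 0.0671 CPM in 687g. The alpha isoform gene Prkca overlapped between pB3 and the others.

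Gpr149 (chr3:62529077-62605140), an orphan receptor of the G protein-coupled class, held 15.8 and 18.8 CPM in pB3, against 0.0740 and 0 CPM in pB2, 0 and 0.109 CPM in Epcam hi and 0 and 0.134 CPM in 687g. All 6 libraries of the other lines were at 0 or within a few reads of it.

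Crabp1 (chr9:54764748-54773110), which binds retinoic acid in the cytoplasm, held 26.5 and 27.6 CPM in pB3, against 0.0740 and 0.0530 CPM in pB2, 0 and 0.109 CPM in Epcam hi and 0.167 and 0.0671 CPM in 687g, one of the widest gaps of the 16. Other genes of the vitamin A pathway were read as a family chosen after the member was known. Crabp2, which delivers retinoic acid to its nuclear receptor, held 2.75 and 4.01 CPM in pB3, against 0.296 and 0.159 CPM in pB2, 0.983 and 0.765 CPM in Epcam hi and 0.0558 and 0.268 CPM in 687g, higher by 3.41 ± 0.43 log2 (adjusted p = 3.72e-05). Cyp26b1, an enzyme that degrades retinoic acid, held 0.0672 and 0.129 CPM in pB3, against 9.25 and 11.8 CPM in pB2, 0.281 and 0.601 CPM in Epcam hi and 1.95 and 1.68 CPM in 687g, a difference of -4.28 ± 0.56 log2 (adjusted p = 6.16e-05). So both binding protein genes were highest in pB3 and the degrading enzyme lowest, while the receptor genes Rara and Rarg overlapped.

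Prl3d2 (chr13:27121698-27127555) is one of the placental lactogen genes, which in mouse are known from trophoblast giant cells. It held 33.5 and 28.5 CPM in pB3, against 0 CPM in both pB2 libraries, 0.632 and 0.109 CPM in Epcam hi and 0.167 and 0.0671 CPM in 687g. Its near-identical neighbour Prl3d3 held 4.63 and 4.14 CPM in pB3, against 0 CPM in both pB2 libraries, 0 CPM in both Epcam hi libraries and 0 and 0.134 CPM in 687g. Prl3d1, also near-identical, held 0.672 and 0.582 CPM in pB3, against 0 CPM in both pB2 libraries, 0 and 0.109 CPM in Epcam hi and 0 and 0.0671 CPM in 687g. How reads matching several of these copies were shared out is not given in the sources used here, so which of the 3 is transcribed is uncertain, though all 3 were highest in pB3. A prolactin family gene elsewhere on chromosome 13, Prl2c3, held 252 and 240.5 CPM in pB3, against 0.370 and 0.424 CPM in pB2, 20.2 and 49.97 CPM in Epcam hi and 247 and 390.5 CPM in 687g, high in 687g as well.

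Another 4 on-only genes have RNA-binding, centrosomal or unknown roles. Ralyl (chr3:13471655-14182287), an RNA-binding protein related to Raly, held 19.2 and 20.8 CPM in pB3, against 0.0740 and 0 CPM in pB2, 0.281 and 0.328 CPM in Epcam hi and 0 and 0.134 CPM in 687g. Cntln (chr4:84884309-85131921), centlein, which helps hold centrioles together, held 14.2 and 13.2 CPM in pB3, against 0 CPM in both pB2 libraries, 0.421 and 0.164 CPM in Epcam hi and 0 CPM in both 687g libraries. Gm45589 (chr8:63700863-63739577), a long intergenic noncoding RNA with no known role, was the most abundant of the 16, with 58.5 and 45.2 CPM in pB3, against 0.0740 and 0 CPM in pB2, 0.140 and 0.601 CPM in Epcam hi and 0.613 and 0.738 CPM in 687g. Gm8773 (chr5:5573799-5576203), annotated as protein coding with no name of its own, held 14.2 and 10.7 CPM in pB3, against 0 and 0.106 CPM in pB2, 0.0702 and 0.219 CPM in Epcam hi and 0 CPM in both 687g libraries. Gm45589 was the only one of the 16 that is not protein coding.

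The 2 nearest tested genes on each side of every member, 72 in all, were mostly not called. Of these neighbours, 9 were called higher and 8 lower in pB3, 5 of them above and 6 below all other libraries, and their median log2 difference was 0.07. The share of all tested genes called higher was 14.8%, called lower 10%. Of all tested genes, 6.09% were called and above all other libraries, and 4.29% called and below. Of the 6 below, 4 lie beside an off-only gene: Cdkn2b and Gm12609 beside Cdkn2a, and Kazald1 and Tlx1os beside Tlx1. Tlx1os overlaps Tlx1 on the other strand, so their reads may not be fully kept apart. Gm12609 held 0 reads in both pB3 libraries against 3 in each pB2 library. Prl3d3 and Prl6a1 beside Prl3d2 were among the 5 above, though reads of Prl3d3 may not be fully kept apart from those of Prl3d2.

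The rule gave different numbers in the other lines. In pB2, 137 genes were on only and 92 off only, against 8 and 17 in Epcam hi, and 687g had 27 and 21. Genes on in pB3 and 1 further line while off in the rest numbered 21 with 687g, 6 with pB2 and 1 with Epcam hi. Genes off in pB3 and 1 further line numbered 2 with 687g, 3 with pB2 and 5 with Epcam hi. The on-only genes are 0.186% of the 8622 genes at 10 CPM or more in both pB3 libraries.

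**Figure D3:**
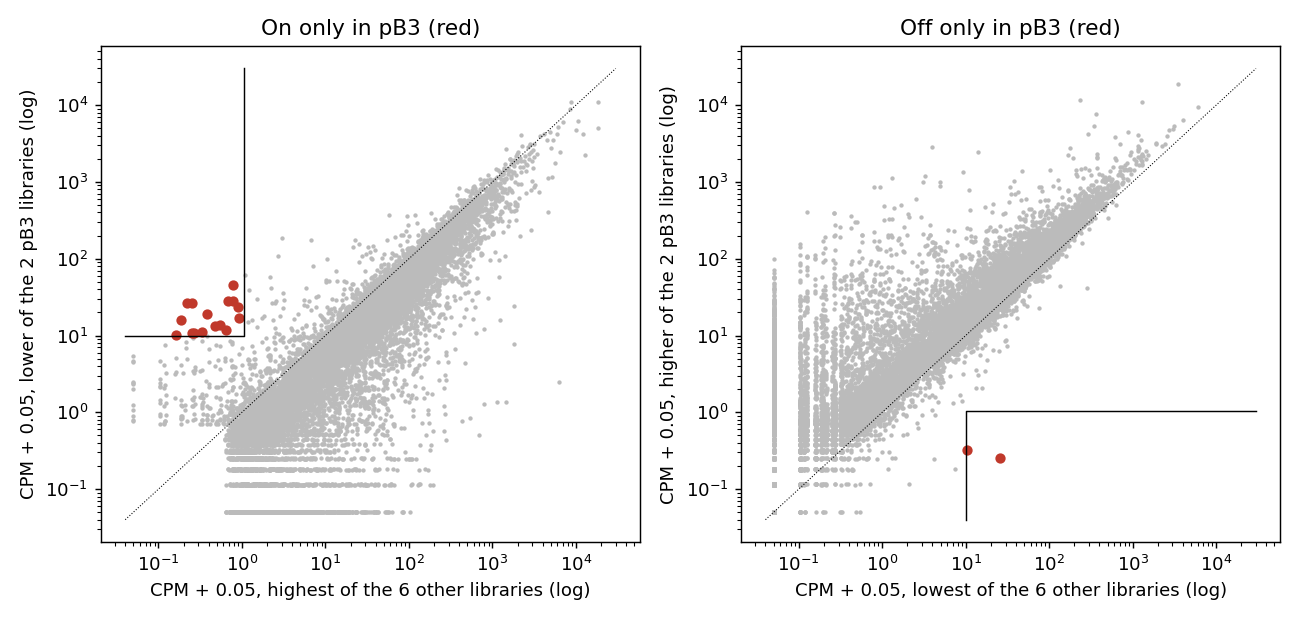
Each grey point is a tested gene, in CPM + 0.05 on log axes. The left panel sets the lower pB3 library against the highest of the 6 other libraries, and the right panel sets the higher pB3 library against the lowest of the 6 others. Red points inside the solid lines are the 16 genes on only in pB3 (left) and the 2 off only in pB3 (right), and the dotted line marks equal values.

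Genes just outside the thresholds included Pax6, an eye and brain homeobox gene, at 9.13 and 10.4 CPM in pB3, against 0 and 0.212 CPM in pB2, 0 CPM in both Epcam hi libraries and 0.0558 and 0.0671 CPM in 687g. Pdgfd, a growth factor for the beta receptor of platelet-derived growth factor, missed on 1 library, with 61.9 and 65.03 CPM in pB3, against 0.518 and 0 CPM in pB2, 1.05 and 0.656 CPM in Epcam hi and 0.223 and 0.470 CPM in 687g. Just inside, Ror2 held 10.1 CPM in its lower pB3 library. On the other side, Dok7, an adaptor of the muscle kinase MuSK, held 0.134 and 0.129 CPM in pB3, against 7.62 and 7.42 CPM in pB2, 8.07 and 8.75 CPM in Epcam hi and 11.7 and 8.05 CPM in 687g. Ttc6, a tetratricopeptide protein gene, lay farther from the 10 CPM threshold, with 0.0672 and 0.0647 CPM in pB3, against 3.18 and 4.98 CPM in pB2, 2.04 and 2.73 CPM in Epcam hi and 2.62 and 2.89 CPM in 687g. Just inside the rule, Cdkn2a held 10.3 CPM in its lowest library outside pB3.

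Across all tested genes, 2356 of 15890 were called higher in pB3 than the mean of the 3 other lines (14.8%) and 1595 lower (10%), or 3951 in all (24.9%), at an adjusted p under 0.05. Of these, 967 had both pB3 libraries above all 6 others (6.09%) and 681 had both below (4.29%). When the other 6 libraries were fitted as 1 group, so that differences among those lines count as error, 53 genes were called higher and 12 lower. Without pB3 replicate 1, 1509 genes were called higher and 620 lower, and without pB3 replicate 2, 1518 and 630. The number of calls therefore rests on both pB3 libraries.

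Of genes outside the on and off sets with at least 10 CPM in every pB3 library, the widest gaps above the other lines belonged to Esm1, Pdgfd, Fez1, Kcnab1, Ak5 and Nefl. Esm1, the secreted proteoglycan endocan, averaged 192 ± 8.29 CPM in pB3, against 0.217 ± 0.00708 in pB2, 2.16 ± 1.12 in Epcam hi and 1.39 ± 0.224 in 687g (SD, n = 2 each), a difference of 7.79 ± 0.21 log2 (adjusted p = 2.60e-11). Nefl, the light chain of neurofilaments, averaged 189.7 ± 16.8 CPM in pB3, against 0.243 ± 0.0304 in pB2, 6.07 ± 0.845 in Epcam hi and 0.614 ± 0.0802 in 687g (SD, n = 2 each), a difference of 7.59 ± 0.17 log2 (adjusted p = 7.30e-12). Fez1, a kinesin adaptor that acts in axon growth, averaged 113 ± 6.34 CPM in pB3, against 0.153 ± 0.00777 in pB2, 2.47 ± 0.218 in Epcam hi and 1.39 ± 0.224 in 687g (SD, n = 2 each), a difference of 7.11 ± 0.17 log2 (adjusted p = 9.11e-12). Ak5, an adenylate kinase best known from brain, rose by 6.73 ± 0.32 log2 (adjusted p = 2.81e-09), and Kcnab1, a subunit of potassium channels, by 6.83 ± 0.35 log2 (adjusted p = 6.13e-09). Nefl, Fez1, Ak5 and Kcnab1 are best known from neurons. Beside them, 5 of 6 tested genes of a neural and Schwann cell marker list were called higher. That list summed to 82.1 and 76.4 CPM in pB3, against 9.84 and 13.2 in pB2, 40.1 and 33.8 for Epcam hi, with 91.5 and 58.1 in 687g, most of it Ncam1, and its part in the result was not tested. S100b and Tubb3 were above all other lines, and Tubb3 held 8.33 and 8.28 CPM in pB3, against 0 and 0.106 CPM in pB2, 0.702 and 0.601 CPM in Epcam hi and 0.502 and 0.268 CPM in 687g.

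Of genes with at least 10 CPM in all 6 other libraries, the widest gaps below belonged to Foxa1, Fundc2, Hspb8, Baiap2l1, Fam102a and Dmd. Foxa1, a pioneer transcription factor of luminal mammary cells that opens chromatin for the oestrogen receptor, averaged 1.95 ± 0.0977 CPM in pB3, against 20.01 ± 6.23 in pB2, 24.3 ± 7.81 in Epcam hi and 19.01 ± 2.77 in 687g (SD, n = 2 each), a difference of -3.43 ± 0.30 log2 (adjusted p = 1.10e-06). Ttc6, given above, is its neighbour on chromosome 12. Hspb8, a small heat shock protein, averaged 1.75 ± 0.372 CPM in pB3, against 13.9 ± 0.887 in pB2, 44.96 ± 2.83 in Epcam hi and 114 ± 8.77 in 687g (SD, n = 2 each), a difference of -4.56 ± 0.22 log2 (adjusted p = 3.49e-09). Fundc2, a protein of the outer mitochondrial membrane, averaged 39.2 ± 2.76 CPM in pB3, against 487 ± 18.2 in pB2, 309.8 ± 41.9 in Epcam hi and 456 ± 78.3 in 687g (SD, n = 2 each), a difference of -3.38 ± 0.19 log2 (adjusted p = 1.47e-08). Dmd, which encodes dystrophin, fell by 2.51 ± 0.19 log2 (adjusted p = 2.73e-07) and stayed at 6.51 CPM in pB3, while Baiap2l1, an actin-linked membrane-bending protein, differed by -3.04 ± 0.23 log2 (adjusted p = 3.23e-07) and Fam102a by -2.41 ± 0.23 log2 (adjusted p = 2.38e-06).

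Lists of related genes are described by how many tested members were called and by their median log2 difference, beside 14.8% higher, 10% lower and a median of 0.00 over all genes. In a list of mesenchymal cytoskeleton and adhesion genes, 14 of 18 were higher and 0 lower by edgeR, with a median of 1.78, and 4 were above every other library. The list summed to 11109 and 11386 CPM in pB3, below the 22249 and 12593 CPM of 687g. Sums were 1403 and 1453 CPM in pB2 and 7604 and 7872 CPM in Epcam hi. Among EMT transcription factors, 9 of 18 were higher and 1 lower, with 4 above all others and a median of 0.44. They summed to 1301 and 1306 CPM in pB3, below the 1828 and 1432 CPM of 687g. Sums were 393 and 486 CPM in pB2 and 977 and 1058 CPM in Epcam hi. Zeb2, a partner of Zeb1, averaged 37.8 ± 2.25 CPM in pB3, against 1.56 ± 0.115 in pB2, 3.46 ± 0.173 in Epcam hi and 28.4 ± 5.81 in 687g (SD, n = 2 each), a difference of 2.82 ± 0.16 log2 (adjusted p = 2.16e-08). Fosl1, the AP-1 subunit Fra-1, averaged 69.8 ± 3.20 CPM in pB3, against 0.116 ± 0.0601 in pB2, 46.6 ± 6.20 in Epcam hi and 40.4 ± 4.20 in 687g (SD, n = 2 each), a difference of 3.47 ± 0.18 log2 (adjusted p = 6.27e-09).

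Epithelial lists were split. Of 26 tested adhesion and polarity genes, 11 were higher and 6 lower (median 0.43), yet just 1 was above and 1, F11r, below all other libraries. The list summed to 1273 and 1293 CPM in pB3, against 2102 and 2114 CPM in pB2, 5275 and 5239 CPM in Epcam hi and 836 and 586 CPM in 687g, so pB3 was below pB2 and Epcam hi in total. Epcam was called higher at 0.89 ± 0.13 log2 (adjusted p = 0.000196) against the mean of the lines, with pB3 below pB2 and Epcam hi and above 687g alone. F11r, the tight junction protein JAM-A, differed by -0.60 ± 0.15 log2 (adjusted p = 0.0104). Of 19 epithelial regulators 3 were higher and 7 lower (median -0.88, or -1.13 with values under a floor of 3 counts raised to it), with 3 below all others, Grhl1 and Foxa1 among them. The third was Trp63, with 0 reads in pB3 against 1 in each Epcam hi library and 2 in each 687g library. Grhl1, a grainyhead-like factor of epithelial barriers, held 0 and 0.0647 CPM in pB3, against 17.2 and 19.3 CPM in pB2, 0.140 and 0.547 CPM in Epcam hi and 1.28 and 1.01 CPM in 687g, with most of it in pB2. Keratins gave 4 higher and 1 lower of 12 (median 0.80, or 0.30 with the floor), and Krt19, a keratin of simple epithelia, averaged 82.9 ± 5.04 CPM in pB3, against 6.93 ± 0.170 in pB2, 2.59 ± 0.108 in Epcam hi and 0.754 ± 0.117 in 687g (SD, n = 2 each), above every other line. Luminal and secretory mammary genes gave 7 higher and 8 lower of 22 (median -0.54), and basal and myoepithelial genes 3 higher and 1 lower of 8 (median 0.28). In the luminal list, Prlr, the prolactin receptor, held 0 CPM in both pB3 libraries, against 55.6 and 83.7 CPM in pB2, 0.0702 and 0.0547 CPM in Epcam hi and 0.0558 and 0.201 CPM in 687g, so its call rests on the high level in pB2.

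Secreted proteases and their inhibitors were often called higher against the mean of the other lines, though few stood above every other library. Kallikreins and other serine proteases gave 8 higher and 1 lower of 14, with a median of 2.04, or 0.93 with the floor. Of these, 3 were above all 6 other libraries. The list summed to 1873 and 1986 CPM in pB3, below the 4713 and 3037 CPM of Epcam hi. Sums were 185 and 174 CPM in pB2 and 456 and 532 CPM in 687g. Klk6, a kallikrein protease of skin and brain, averaged 142 ± 2.14 CPM in pB3, against 0.0635 ± 0.0148 in pB2, 13.8 ± 11.001 in Epcam hi and 1.97 ± 1.68 in 687g (SD, n = 2 each). Metalloproteinases and inhibitors gave 11 higher and 3 lower of 19 (median 0.65), with 2 above and 1 below all 6 others. That list summed to 1671 and 1728 CPM in pB3, below the 2391 and 2450 CPM of 687g. Sums were 1267 and 1508 CPM in pB2 and 1690 and 893 CPM in Epcam hi. Mmp3, stromelysin 1, averaged 385 ± 20.8 CPM in pB3, against 0.169 ± 0.135 in pB2, 26.5 ± 3.31 in Epcam hi and 85.9 ± 46.5 in 687g (SD, n = 2 each), a difference of 5.67 ± 0.26 log2 (adjusted p = 1.90e-09). These 2 proteases shared an order: pB2 was near 0 and Epcam hi and 687g lay between.

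Cytokines and alarmins gave 10 higher and 2 lower of 19 (median 0.98), and chemokines 3 higher and 2 lower of 13 (median 0.09). The cytokine list summed to 1068 and 1023 CPM in pB3, against 110 and 125 CPM in pB2. Sums were 1357 and 1466 CPM in Epcam hi and 1090 and 1527 CPM in 687g, above pB3. Tslp, an epithelial alarmin that acts on dendritic cells, averaged 376 ± 20.6 CPM in pB3, against 0.439 ± 0.321 in pB2, 13.5 ± 2.42 in Epcam hi and 78.8 ± 22.5 in 687g (SD, n = 2 each). Il18, an inflammasome cytokine, averaged 9.14 ± 1.13 CPM in pB3, against 0.545 ± 0.171 in pB2, 0.215 ± 0.00575 in Epcam hi and 0.603 ± 0.0936 in 687g (SD, n = 2 each), a difference of 4.45 ± 0.30 log2 (adjusted p = 9.30e-08). Cxcl12, the ligand of Cxcr4, averaged 232 ± 7.03 CPM in pB3, against 9.57 ± 1.32 in pB2, 6.02 ± 0.0156 in Epcam hi and 129 ± 18.9 in 687g (SD, n = 2 each), a difference of 3.58 ± 0.14 log2 (adjusted p = 3.81e-10). Interferon-stimulated genes gave 4 higher and 4 lower of 24 (median -0.37). Antigen presentation genes gave 5 higher and 2 lower of 18 (median 0.25).

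Guidance and growth factor lists varied. Semaphorins and axon guidance genes gave 15 higher and 5 lower of 33 (median 0.23), and Sema7a, a membrane-anchored semaphorin, averaged 148 ± 8.38 CPM in pB3, against 0.100 ± 0.0672 in pB2, 25.5 ± 9.27 in Epcam hi and 10.5 ± 1.97 in 687g (SD, n = 2 each). Sema3d, a secreted semaphorin, was below all others, with 0 and 0.0647 CPM in pB3, against 5.84 and 6.57 CPM in pB2, 0.491 and 0.164 CPM in Epcam hi and 4.02 and 1.41 CPM in 687g. Most of it was in pB2 and 687g. The place of Sema3d below Epcam hi rests on 0 and 1 reads in pB3 against 7 and 3. Ephrins and their receptors gave 7 higher and 4 lower of 18 (median -0.08), with the receptor gene Ephb2 at 16.7 ± 0.213 CPM in pB3, against 3.32 ± 1.14 in pB2, 1.24 ± 0.435 in Epcam hi and 0.257 ± 0.206 in 687g (SD, n = 2 each). Epha7, an ephrin receptor, was below all others, with 0.0672 and 0.129 CPM in pB3, against 26.9 and 35.4 CPM in pB2, 0.140 and 0.219 CPM in Epcam hi and 1.78 and 1.34 CPM in 687g. Most of it was in pB2, and its place below Epcam hi rests on 1 and 2 reads in pB3 against 2 and 4. Wnt ligands and modulators gave 8 higher and 4 lower of 19 (median -0.53, or -1.16 with the floor). The on-only member Ror2 is among the higher genes of that list, where the rule placed it. Growth factors of the FGF and EGF families and their receptors gave 10 higher and 2 lower of 21 (median 0.21), and the TGF-beta and BMP list 9 higher and 6 lower of 30 (median 0.12). Fgf5, a ligand that ends hair growth, held 1.41 and 0.841 CPM in pB3, against 0 CPM in both pB2 libraries, 0.561 and 0.109 CPM in Epcam hi and 0.112 and 0.134 CPM in 687g. Bmp6, a BMP ligand, held 7.05 and 6.73 CPM in pB3, against 0.0740 and 0.106 CPM in pB2, 6.60 and 5.25 CPM in Epcam hi and 5.91 and 5.30 CPM in 687g, so that pB3 was just above Epcam hi and 687g and far above pB2 alone.

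Of 39 Hox genes, the homeobox genes of body position, 14 were tested: 11 were higher and 0 lower by edgeR, with a median of 4.18, or 3.39 with the floor. Summed over all 39, Hox genes held 42.3 and 44.7 CPM in pB3, against 52.4 and 53.3 CPM in pB2, 5.75 and 6.40 CPM in Epcam hi and 4.91 and 5.17 CPM in 687g, so pB2 held more in total. The 6 that stood above all other libraries were Hoxa7, Hoxa9, Hoxb3, Hoxb4, Hoxb6 and Hoxb7. Hoxb7 held 2.82 and 2.01 CPM in pB3, against 0 CPM in both pB2 libraries, 0 CPM in both Epcam hi libraries and 0 and 0.0671 CPM in 687g. Hoxb6 held 1.01 and 1.68 CPM in pB3, against 0 CPM in both pB2 libraries, 0 CPM in both Epcam hi libraries and 0 CPM in both 687g libraries. These are low levels. A Hox gene that passed the low-count filter through pB3 alone had to be higher there, so the count over tested Hox genes is a description only.

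Glutathione and aldehyde metabolism gave 11 higher and 8 lower of 35 (median 0.22, or 0.04 with the floor). Aldh3a1, an aldehyde dehydrogenase of cornea and tumours, averaged 158 ± 13.7 CPM in pB3, against 18.8 ± 1.78 in pB2, 0.894 ± 0.0266 in Epcam hi and 32.6 ± 6.99 in 687g (SD, n = 2 each), a difference of 4.27 ± 0.15 log2 (adjusted p = 3.09e-10). Tumour suppressor loci, the list that holds Cdkn2a and Cdkn2b, gave 1 higher and 6 lower of 20 (median -0.18), and those were its 2 genes below all other libraries. Cdkn2a is an off-only member, so its place in both counts was fixed by the rule. Of 30 germline genes 3 were tested and 2 were higher, which is a description only for the same reason as for the Hox genes. Tdrd1, which acts in the piRNA pathway of the testis, held 1.34 and 0.841 CPM in pB3, against 0 CPM in both pB2 libraries, 0 CPM in both Epcam hi libraries and 0 CPM in both 687g libraries. Adipocyte markers summed to 0.940 and 1.23 CPM in pB3, against 3.40 and 4.40 CPM in pB2, 0.351 and 0.492 CPM in Epcam hi and 37.03 and 42.2 CPM in 687g. Skeletal muscle markers summed to 0.672 and 0.777 CPM in pB3, against 0.518 and 0.318 CPM in pB2, 2.95 and 2.02 CPM in Epcam hi and 3.29 and 4.43 CPM in 687g. Each of these 2 lists had 3 tested genes, of which 0 were higher and 1 lower by edgeR.

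**Figure D4:**
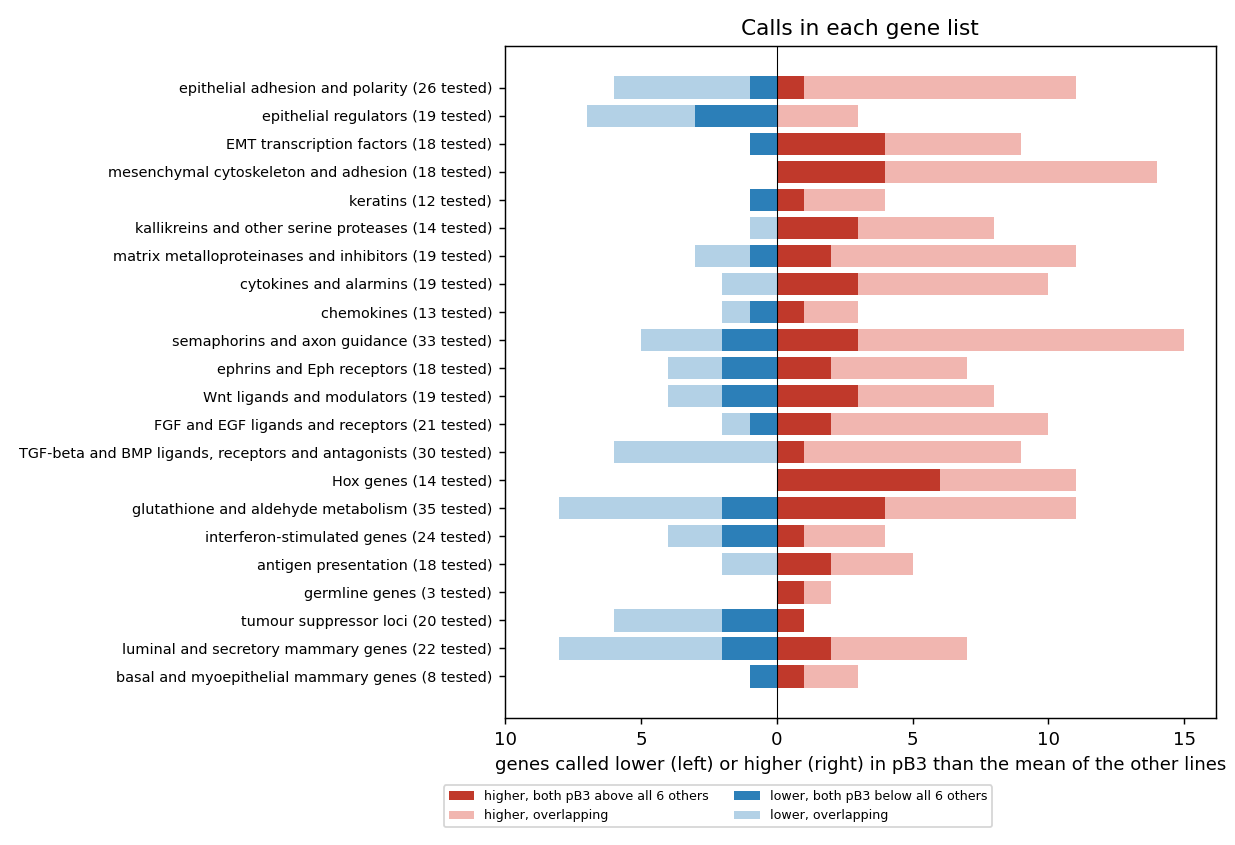
Number of tested genes of each list called higher (bars to the right of 0) or lower (to the left) in pB3 than the mean of the other lines, with the number tested beside the list's name. Dark bars are genes with both pB3 libraries above or below all 6 others, and pale bars are called genes that overlap. The mesenchymal list has 14 higher calls and 0 lower, and the epithelial regulators 3 higher and 7 lower.

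Chromosome 19, which carries Tlx1 and Mamdc2, stood apart from the other chromosomes in pB3, a view chosen after the values were seen. Of 494 tested genes on it, 194 were called higher (39.3%), and 117 of them lay above all 6 other libraries (23.7%), against 3.96% to 9.09% on the other chromosomes. The median log2 difference was 0.39, or 1.31-fold, while medians of the other chromosomes ran from -0.17 to 0.14. On log2(CPM + 0.5), the median differences of pB3 from each line were 0.38 against pB2, 0.32 against Epcam hi and 0.32 against 687g, so no single line carried it. Set against the mean of all 8 libraries, the median of chromosome 19 was 0.29 and 0.28 in the pB3 libraries, against -0.14 and -0.09 in pB2, -0.15 and -0.09 for Epcam hi, with -0.04 and -0.11 in 687g. All 7 stretches of 10 Mb along it had positive medians, from 0.23 to 0.51. Tlx1 and Loxl4 on this chromosome were low in pB3 against that shift. Without chromosome 19, 849 of 15369 tested genes on the other autosomes and X were above all other libraries (5.52%). DNA was not measured here, and copy number and regulation cannot be told apart.

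**Figure D5:**
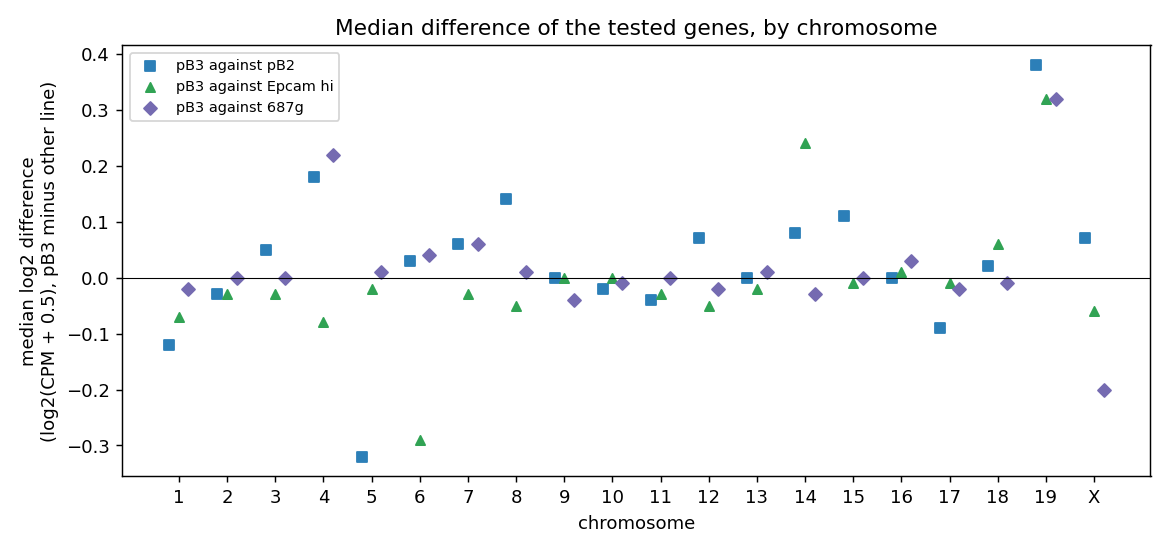
Median log2 difference of tested genes, on log2(CPM + 0.5), between pB3 and each other line, by chromosome, with 1 point per line. On chromosome 19 the points lie at 0.38 against pB2, 0.32 against Epcam hi and 0.32 against 687g.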

How the data were processed

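RNA of 4 mouse mammary carcinoma lines was sequenced in 2 libraries per line. Per the submitters' processing notes, reads were aligned with STAR 2.6.1a to GRCm38 (mm10) and counted with featureCounts. The deposited files hold raw read counts per gene, as whole numbers, for 53379 genes in each of 8 libraries; the handling of reads that match several genes is not given in the sources used here. GENCODE M21 gave symbols to 53274 gene IDs and none to 105.

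Computed from those counts were TMM factors, CPM on TMM-scaled totals, and edgeR 4.0.16 quasi-likelihood F tests in R 4.3.3, with 1 coefficient per line in all 8 libraries, filterByExpr (15890 genes left), and the contrast of pB3 with the mean of the pB2, Epcam hi and 687g coefficients. Calls were two-sided at a Benjamini-Hochberg adjusted p under 0.05. Standard errors of log2 differences are approximate: each is the absolute log2 difference divided by the square root of its F statistic. The fit had 4 residual degrees of freedom and a common dispersion of 0.0318. Fold changes against a group at 0 counts depend on the prior count, and the floor is 3 counts. Scripts were tested on simulated data.

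The members and the 22 gene lists and 6 marker lists were chosen with earlier results of these data known. Named genes were all members, the 6 widest gaps and 5 nearest misses each way, and up to 2 genes per list with the largest called differences that did not overlap, of which a selection is given. Some of these genes, 1 of them on only in pB3, are not reported here. Gene families, the chromosome views and the stretch around Cdkn2a were added after values were seen. Alternatives tried were other size factors, no filter, a replicate block, DESeq2 1.42.0, the other lines as 1 group, other CPM thresholds, and leaving out each library.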

Additional observations from a re-analysis of the deposited data

How the results depend on the processing

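The counts of calls held within 1.5 times of 2356 higher and 1595 lower genes under 5 alternatives: DESeq2's Wald test (2151 and 1671), RLE size factors (2281 and 1654), total counts (2104 and 1854), no low-count filter (2633 and 1590) and a replicate block (2349 and 1522). Libraries with the same number did not deviate together (correlations from -0.0982 to 0.173 over 6 pairs of lines), so the block shares only a number. With the 6 other libraries as 1 group, 53 genes were higher and 12 lower, and 53 and 12 were above and below all others. In that fit the log2 fold change of Epcam reversed to -1.33 (adjusted p = 0.915). That fit counts differences among the other lines as error. Leaving out each library gave 1509 to 2814 higher, 620 to 1839 lower, 746 to 1234 above and 355 to 872 below all others, 16 to 20 on-only genes and 2 off-only genes each time. The lowest counts came without pB3 replicate 1 or 2, when the remaining pB3 library is assumed to vary like the other lines. Raising the on threshold to 20 CPM left 6 on-only and 1 off-only genes.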

Other observations

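Other cut-offs named further genes or fewer. With at least 5 CPM where on and under 0.5 CPM where off, 20 genes were on only in pB3, of which 10 were among the 16. That setting is looser where on and stricter where off, and Cd34, Gm45589, Loxl1, Mrc2, Prkcb and Prl3d2 dropped out. The 10 that entered were Ahrr, the repressor of the aryl hydrocarbon receptor, the cadherin Cdh26, the carboxylesterase Ces1g, the microfibril gene Fbn1, Gpnmb, the receptor subunit Il5ra, the hyaluronan receptor Layn, the neurofilament gene Nefm, Pax6 and Ptgs2os2. Dok7 joined Tlx1 and Cdkn2a to make 3 genes off only in pB3. With the lower cut-off at 2 CPM instead, 24 genes were on only, and all 16 were among them. Those that entered there included the cadherin Cdh6, the endoderm and heart factor Gata6, Fbln1, Kcnab1 and Pdgfd. At 20 CPM the 6 genes left were Cd34, Crabp1, Gm45589, Mrc2, Pdpn and Prl3d2.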
